A study of Mus musculus with 22 samples.

Results

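Zinc in the drinking water was tested for an effect that differs between mice with a dimerization-poor glucocorticoid receptor (GRDim) and wild-type mice (GRWT), in the ileal libraries that contain gut muscle. The comparison is the interaction term, which is the zinc effect in GRDim minus the zinc effect in GRWT on the log2 scale, so that a positive value stands for a gene that zinc moved upwards more in GRDim, or downwards more in GRWT. It used 12 of the 22 RNA-seq libraries, chosen by their level of Myh11, which had to exceed 100 CPM (counts scaled to the size of the library). Myh11 encodes the myosin heavy chain of smooth muscle, and 3 libraries in each of 4 conditions passed. Myh11 lay between 298 and 463 CPM in these 12 libraries and between 3.22 and 20.5 CPM in the 10 others, and no other value chose the libraries; the 42 genes described below were selected on the interaction itself.

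The 4 conditions were GRWT and GRDim mice that drank normal water or water with 25 mM ZnSO4 for 7 days. All were female FVB/N mice of 8 to 14 weeks, bred from heterozygous GRDim parents in a conventional animal house, so that both genotypes came from the same crosses. GRDim mice carry a point mutation in every cell, hence the level of the receptor transcript Nr3c1 does not check the genotype. The labels call the libraries replicates and do not tie them to animals, and p-values therefore measure the spread between these samples.

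The tissue labels went against the muscle content in 7 of the 12 libraries, and whether labels or libraries were exchanged is not known. Those 7 carry the label IEC (scraped lining of the distal ileum) and 5 the label ileum (a whole piece). Both GRWT conditions held 1 library labelled ileum (replicate 1) and 2 labelled IEC (replicates 4 and 5). In GRDim, all 3 water libraries were labelled IEC (replicates 4 to 6) and all 3 zinc libraries ileum (replicates 1 to 3), so the zinc effect in GRDim and the tissue label cannot be told apart within that genotype. Total counts ran from 13415583 to 15620744 per library, and 3 counts, the floor for detection, correspond to at most 0.224 CPM. On the first principal component (55.6% of the variance) the GRWT libraries lay between 17.3 and 31.4, the GRDim water libraries between -37.3 and -35.5, and the GRDim zinc libraries at -11.1, -12.3 and -21.0 (replicate 3). GRWT zinc replicate 1 stood apart on the second component (9.34%), at -27.0, and held 61.6 CPM of the B cell gene Ms4a1 against 0.371 to 2.98 CPM in the 11 others.

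The glucocorticoid receptor is a transcription factor that is activated by adrenal steroids. As a dimer it binds palindromic DNA elements and switches on genes such as Sgk1, Tsc22d3 and Per1, and as a monomer it can dampen inflammatory transcription through other factors. GRDim impairs the dimer function. Zinc is sensed by Mtf1, which induces the zinc-binding metallothioneins, and the ileal wall that these libraries sampled holds absorptive epithelium, immune cells, enteric nerves and smooth muscle.

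The zinc effect differed between the genotypes for 42 of 15947 genes tested (0.263%; edgeR quasi-likelihood test, Benjamini-Hochberg adjusted p under 0.05). The interaction was positive for 36 genes (0.226% of genes tested) and negative for 6 (0.0376%). Without adjustment, 2471 genes (15.5%) had a p-value under 0.05, 1230 of them positive and 1241 negative, and the median interaction over all genes was -0.01. Sizes ran from 0.46 to 2.93 among the positive genes and from -0.50 to -1.02 among the negative ones. Just inside the threshold lay Rdh7, Tac1 and Tmem50b (adjusted p = 0.045, 0.0455 and 0.0481), and just outside it Gsdme, Fmo5 and Nkx2-3 (adjusted p = 0.0504 each).

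For most of these genes the GRDim water libraries were the ones that stood away from the rest. The GRDim zinc libraries lay part of the way to the GRWT level, and within GRDim zinc and the tissue label cannot be told apart. On water, 35 of the 36 positive genes were lower in GRDim than in GRWT and all 6 negative genes were higher, each with an adjusted p under 0.05 (of all genes tested, 38.7% were called on water, 18.9% lower and 19.7% higher). The 1 exception was Bmp8b. In GRDim, 31 of the 36 were called higher on zinc than on water, and all 6 lower. Of all genes, 7.7% changed in GRDim, 4.46% upwards and 3.24% downwards. In GRWT, 7 of the 36 were called, all lower on zinc, and none of the 6 passed (of all genes, 0.15% fell and 0.232% rose). The zinc and water libraries of GRDim did not overlap for 40 of the 42 genes, the exceptions being Hspa1b and Per2 (14.4% of all genes were higher and 17.6% lower without overlap). The genotype difference was smaller on zinc than on water for 40 of 42, against 66.1% of all genes, with Bmp8b and Herpud1 as exceptions. It passed the test on zinc for 24 of the 42, where 9.81% of all genes were called higher and 9.0% lower. For 22 of these 24 its sign on zinc was opposite to that of the interaction, as it was on water. Bmp8b and Herpud1 were the exceptions on zinc. On water, the GRDim and GRWT libraries did not overlap for 41 (27.6% of all genes were higher and 26.5% lower in GRDim without overlap). In GRWT, the zinc and water libraries did not overlap, in the direction opposite to the interaction, for 21 (7.81% of all genes were higher and 7.04% lower without overlap). These contrasts share libraries with the interaction that chose the genes and are given as a description.

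**Figure D1:**
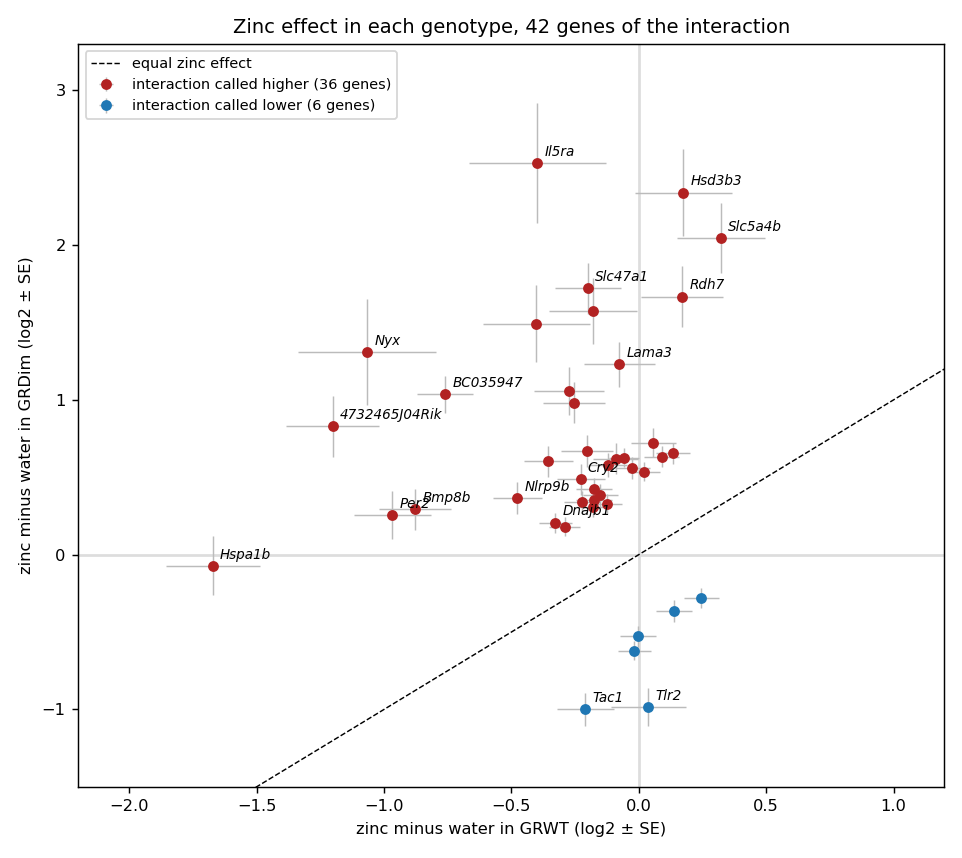
Zinc minus water in GRWT (horizontal, log2 ± SE) against zinc minus water in GRDim (vertical, log2 ± SE) for the 42 genes of the interaction, with 3 libraries per condition. Red points lie above the dashed line of equal effects and blue points below it; most red points sit near 0 in GRWT and above 0 in GRDim, whereas Hspa1b (-1.67 in GRWT, -0.07 in GRDim) and Per2 (-0.97 and 0.26) moved mainly in GRWT.

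RefSeq promoters of 250 bases before the start (build GRCm38.p6) were found for 30 of the 42 genes, with 40 starts. They were searched on both strands for 6 kinds of element, and 4 are shown because their genes represent the groups described next: the heat shock chaperone Hspa1b, the most changed gene Il5ra, the clock repressor Cry2 and the negative gene Nup93. Capitals mark a heat shock element (GAA and TTC with any 2 bases between) in Hspa1b (chr17:34959239-34959488, minus strand), a metal response element (TGCACNC or TGCGCNC) in Il5ra (chr6:106749038-106749287, minus strand) and an E-box (CACGTG) in Nup93 (chr8:94214314-94214563, plus strand), while Cry2 (chr2:92434070-92434319, minus strand) held no match to any of the 6.
Hspa1b: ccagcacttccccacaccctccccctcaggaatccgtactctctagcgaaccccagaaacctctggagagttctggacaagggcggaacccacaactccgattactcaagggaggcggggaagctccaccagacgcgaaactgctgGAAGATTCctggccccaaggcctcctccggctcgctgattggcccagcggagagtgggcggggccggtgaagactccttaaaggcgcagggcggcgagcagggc
Il5ra: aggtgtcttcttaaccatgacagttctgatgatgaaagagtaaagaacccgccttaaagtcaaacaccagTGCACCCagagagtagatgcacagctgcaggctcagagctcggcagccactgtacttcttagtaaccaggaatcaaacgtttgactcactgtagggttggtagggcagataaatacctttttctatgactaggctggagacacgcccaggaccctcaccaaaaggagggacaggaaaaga
Nup93: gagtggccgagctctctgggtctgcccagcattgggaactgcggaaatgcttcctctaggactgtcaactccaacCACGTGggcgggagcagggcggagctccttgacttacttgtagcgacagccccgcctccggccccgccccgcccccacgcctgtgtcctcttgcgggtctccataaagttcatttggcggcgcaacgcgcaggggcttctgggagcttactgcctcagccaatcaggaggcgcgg
Cry2: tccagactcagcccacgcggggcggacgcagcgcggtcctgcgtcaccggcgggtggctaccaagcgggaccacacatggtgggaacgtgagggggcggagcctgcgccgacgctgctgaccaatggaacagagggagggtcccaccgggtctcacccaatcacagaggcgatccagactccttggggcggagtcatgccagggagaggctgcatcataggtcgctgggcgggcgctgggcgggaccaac

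The metal response element, the sequence that Mtf1 binds, was present at 9 of the 40 starts (22.5%), against 21.4% of the 32851 starts in the table. The heat shock element was present at 3 (7.5%, against 6.69%), in Hspa1b, Fhl1 and Slc5a4b, and the E-box of the clock at 3 (7.5%, against 6.02%), in Nup93, Tac1 and 4732465J04Rik. No start of the 40 held the D-box (TTAT followed by GCAA, or TTAC followed by GTAA), the glucocorticoid response element (GNACA and TGTNC with any 3 bases between) or the interferon response element (GAAA and GAAA with any 2 bases between), which occur at 0.804%, 0.387% and 2.98% of all starts. The matches describe letters in these windows only.

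Genes of transport and metabolism formed one group of the positive genes; the groups here follow known roles and were made after the values had been seen. Slc47a1 encodes a proton-coupled exporter of organic cations and toxins (ENSMUSG00000010122, GRCm38 chromosome 11, 61343401 to 61378345). It was at 17.7, 13.9 and 13.7 CPM in GRWT on water, at 12, 14 and 13.4 CPM in GRWT on zinc, at 1.99, 1.45 and 2.11 CPM in GRDim on water and at 5.94, 6.30 and 6.14 CPM in GRDim on zinc. All 3 GRDim water libraries were thus below all others, and the GRDim zinc libraries lay between them and GRWT without overlap. The zinc effect was -0.20 ± 0.13 (SE) in GRWT and 1.72 ± 0.17 in GRDim, an interaction of 1.92 ± 0.21 (adjusted p = 0.0014, edgeR).

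Hsd3b3 encodes a steroid dehydrogenase (ENSMUSG00000062410, chromosome 3, 98741523 to 98763127), overlaps Zfp697 on the other strand and has close paralogs, which makes its count uncertain. Its level was 19.0, 12.1 and 12.9 CPM in GRWT on water, 14.3, 17.3 and 18.1 CPM in GRWT on zinc, 1.14, 0.434 and 1.15 CPM in GRDim on water and 4.52, 4.55 and 4.94 CPM in GRDim on zinc. As for Slc47a1, GRDim on water was lowest and GRDim on zinc next, without overlap, and the GRWT conditions overlapped. The interaction was 2.16 ± 0.34 (adjusted p = 0.0262, edgeR).

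The amino acid transporter gene Slc6a20b (1.76 ± 0.28, adjusted p = 0.0262, edgeR) and Slc5a4b of the glucose transporter family (1.72 ± 0.29, adjusted p = 0.0262) were likewise lowest in GRDim on water and next in GRDim on zinc. Slc6a20b overlaps Sacm1l on the other strand, and Slc5a4b has a near copy, Slc5a4a. In GRDim, Slc5a4b lay between 0.723 and 1.42 CPM on water and between 3.88 and 5.18 CPM on zinc, against 7.56 to 12.5 CPM in the 6 GRWT libraries. The retinol dehydrogenase gene Rdh7 was at 4.77 to 7.24 CPM and 14.6 to 22.4 CPM in these GRDim conditions and at 40.9 to 59.8 CPM in GRWT (1.498 ± 0.26, adjusted p = 0.045).

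Nt5e encodes the ectoenzyme CD73, which makes adenosine outside the cell (ENSMUSG00000032420, chromosome 9, 88327197 to 88372092). It was at 32.4, 32.6 and 26.3 CPM in GRDim on water and at 61.6, 69.8 and 48.8 CPM on zinc, against 95.6, 96.5 and 89.1 CPM in GRWT on water and 85.1, 81.2 and 69.7 CPM on zinc. GRDim zinc replicate 2 just overlapped the GRWT zinc libraries, and the interaction was 1.24 ± 0.18 (adjusted p = 0.0262, edgeR).

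Apoa1, the main protein of high-density lipoprotein, was the most abundant of the 42 genes (ENSMUSG00000032083, chromosome 9, 46228580 to 46230466). Its level rose in GRDim from 1898, 1781 and 1978 CPM to 3178, 3261 and 2561 CPM, and was 3701 to 5103 CPM in GRWT (interaction 0.87 ± 0.14, adjusted p = 0.0262, edgeR). Liver also makes this transcript; the summed level of 10 liver markers ran from 8.61 to 400.6 CPM in the GRDim zinc libraries and from 10.9 to 146 CPM in the GRDim water libraries, and their part in the result was not tested. The sterol-binding protein gene Osbpl6 (0.67 ± 0.13, adjusted p = 0.045) had the same direction.

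Signalling, matrix and cytoskeletal genes formed a second group. Il5ra, the receptor chain for the eosinophil and B cell cytokine interleukin 5, had the largest interaction of all called genes (ENSMUSG00000005364, chromosome 6, 106710357 to 106749037). It was at 16.5, 12.4 and 12.6 CPM in GRWT on water, 11.9, 10.9 and 8.77 CPM in GRWT on zinc, 0.639, 0.289 and 1.28 CPM in GRDim on water (9, 4 and 20 counts) and 4.44, 5.81 and 2.89 CPM in GRDim on zinc. No condition overlapped another, in the order GRDim on water, GRDim on zinc, GRWT on zinc and GRWT on water. The interaction was 2.93 ± 0.48 (adjusted p = 0.035, edgeR).

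Lama3, a laminin chain of the epithelial basement membrane (ENSMUSG00000024421, chromosome 18, 12333819 to 12583013), was one of the genes for which GRDim on zinc reached or passed GRWT. Its level in GRDim was 27.1, 35.8 and 24.0 CPM on water and 78.1, 67.2 and 58.1 CPM on zinc, against 53.6 to 65.7 CPM over the 6 GRWT libraries (interaction 1.31 ± 0.20, adjusted p = 0.035, edgeR). The genotype difference was -1.03 on water and 0.28 on zinc, and the latter did not pass (adjusted p = 0.1999). Lama3 overlaps Gm29200 on the other strand.

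The atypical kinase gene Mapk4 had an interaction of 1.33 ± 0.21 (adjusted p = 0.0262, edgeR) and the muscle LIM protein gene Fhl1 one of 0.96 ± 0.14 (adjusted p = 0.0238). Bmp1, a protease that matures collagen, remained far below GRWT on zinc: it was at 10.4 to 12.98 CPM in GRDim on water and 17.4 to 19.5 CPM on zinc, against 42.5 to 53.6 CPM in GRWT (0.71 ± 0.13, adjusted p = 0.0424). The remaining positive genes that the naming rule took in this size range were Hist1h2bc, Fam83b, Plekha1, Rai14, Plcxd2, Zmiz1 and Nlrp9b, with interactions from 0.54 to 0.84. The counts of Hist1h2bc and Nlrp9b, members of families of near copies, are uncertain. Fam83b, an adaptor in growth factor signalling, was the only one of these called with every library left out in turn, with GRDim at 74.8, 70.2 and 69.9 CPM on water and 119, 111 and 102 CPM on zinc, and GRWT at 114 to 127 CPM (0.68 ± 0.09, adjusted p = 0.00489).

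**Figure D2:**
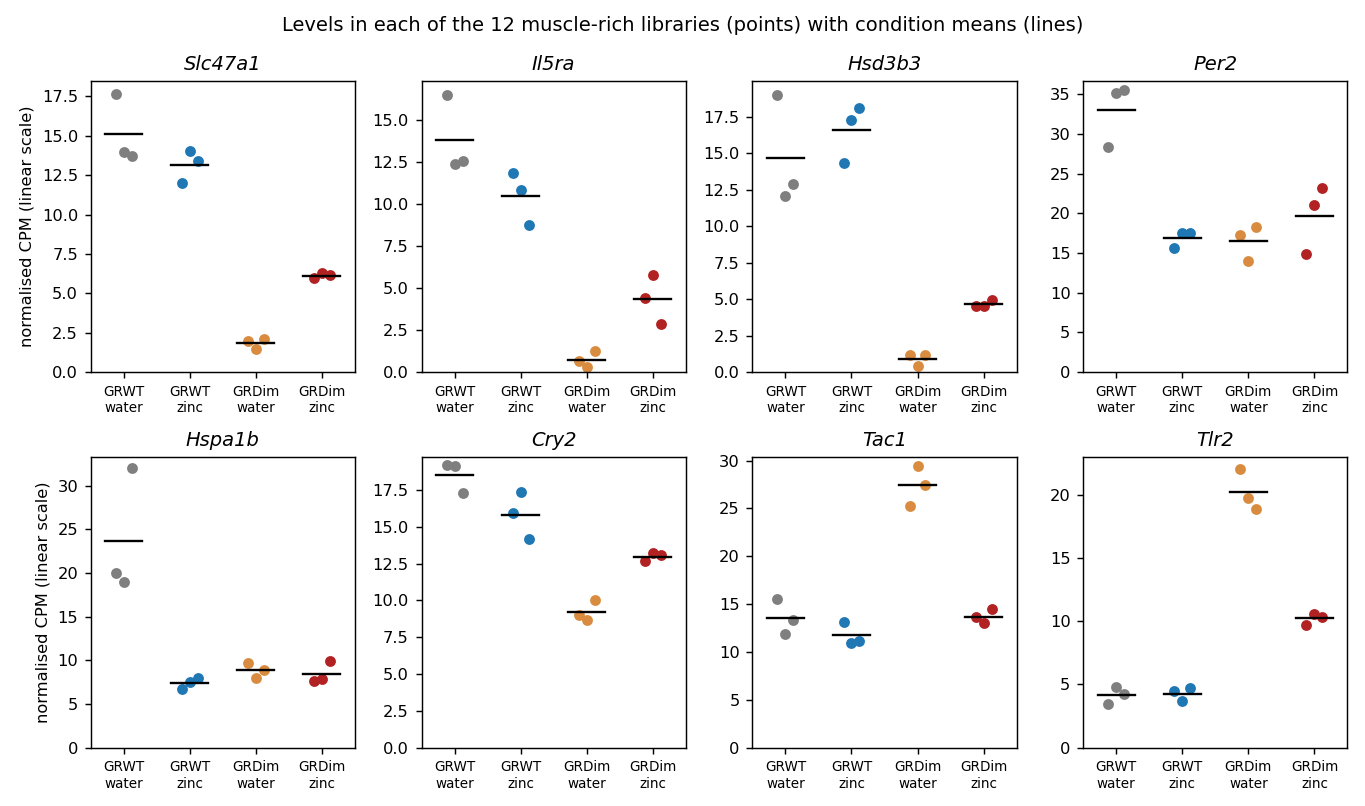
Normalised CPM on linear axes for 8 genes of the interaction in each of the 12 muscle-rich libraries (points) with condition means (lines), 3 libraries per condition. For Slc47a1, Il5ra, Hsd3b3 and Cry2 the GRDim water libraries are lowest, for Tac1 and Tlr2 they are highest, and for Per2 and Hspa1b the GRWT water libraries stand above the other 9.

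A smaller set of positive genes moved mainly through GRWT. The clock repressor Per2 (ENSMUSG00000055866, chromosome 1, 91415982 to 91459324) was at 28.4, 35.2 and 35.6 CPM in GRWT on water and at 15.7, 17.5 and 17.5 CPM in GRWT on zinc, whereas GRDim had 17.3, 13.9 and 18.2 CPM on water and 14.8, 21.0 and 23.2 CPM on zinc. The GRWT water libraries were above the 9 others, which overlapped. Zinc lowered Per2 in GRWT (-0.97 ± 0.15, adjusted p = 0.0182) and moved it by 0.26 ± 0.16 in GRDim (adjusted p = 0.369), an interaction of 1.22 ± 0.22 (adjusted p = 0.045, edgeR).

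Hspa1b, which encodes a stress-inducible Hsp70 chaperone (ENSMUSG00000090877, chromosome 17, 34956436 to 34959238), showed the same form with a larger fall in GRWT. It went from 20.003, 18.9 and 32 CPM on water to 6.77, 7.502 and 7.95 CPM on zinc in GRWT, and from 9.72, 8.02 and 8.89 CPM to 7.60, 7.84 and 9.88 CPM in GRDim. Zinc changed it by -1.67 ± 0.19 in GRWT (adjusted p = 0.0013) and by -0.07 ± 0.19 in GRDim (adjusted p = 0.87), an interaction of 1.60 ± 0.27 (adjusted p = 0.0289, edgeR). Its near copy Hspa1a, with which it shares reads that map to more than 1 place and were left out of the counts, had a like value at lower counts (1.41 ± 0.50, adjusted p = 0.202). The Hsp70 partner Dnajb1 fell in GRWT by 0.33 (adjusted p = 0.041), with 0.21 in GRDim (adjusted p = 0.0662; interaction 0.54 ± 0.09, adjusted p = 0.0277).

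Bmp8b, a ligand of the bone morphogenetic protein family, was the positive gene with no genotype difference on water (0.04). Its level was 8.84, 9.11 and 7.79 CPM in GRWT and 9.08, 8.38 and 9.08 CPM in GRDim on water, and 5.01, 4.91 and 4.05 CPM in GRWT and 9.48, 12.6 and 10.4 CPM in GRDim on zinc. The GRWT zinc libraries lay below the 9 others and the GRDim zinc libraries above the 9 others, and the interaction was 1.17 ± 0.19 (adjusted p = 0.0262, edgeR). Bmp8b overlaps Ppie and Gm17244 on the other strand. Nyx, a leucine-rich proteoglycan, had low counts: GRWT had 3.96, 3.29 and 5.56 CPM on water and 2.26, 1.81 and 2.02 CPM on zinc, and GRDim 0.355, 0.867 and 0.767 CPM on water and 2.26, 1.33 and 1.41 CPM on zinc (2.38 ± 0.44, adjusted p = 0.0396). The rise in GRDim of 1.31 passed (adjusted p = 0.0315) and the change in GRWT of -1.07 did not (adjusted p = 0.12). Nyx thus did not move mainly through GRWT.

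Loci without a proper gene name were picked with their values in view, since BC035947 had the smallest p-value of all (ENSMUSG00000090486, chromosome 1, 78497026 to 78512158; 1.80 ± 0.16, adjusted p = 0.000218, edgeR). Its counts fell in GRWT from 21.3, 18.7 and 18.5 CPM to 11.6, 11.6 and 11.2 CPM and rose in GRDim from 4.68, 4.26 and 5.63 CPM to 10.3, 10.505 and 9.17 CPM. It overlaps Mogat1 on the other strand. The long non-coding RNA 4732465J04Rik behaved likewise, with -1.20 in GRWT (adjusted p = 0.00611) and 0.83 in GRDim (adjusted p = 0.0203; interaction 2.03 ± 0.27, adjusted p = 0.00672). Nlrp9b was the third gene with called effects of opposite sign in both genotypes, at -0.48 and 0.37.

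The 6 negative genes were higher in GRDim on water and fell with zinc in GRDim. Tlr2, a receptor for bacterial lipoproteins (ENSMUSG00000027995, chromosome 3, 83836272 to 83841767), was at 22.1, 19.7 and 18.9 CPM in GRDim on water and 9.71, 10.6 and 10.4 CPM on zinc, against 3.46 to 4.78 CPM over the 6 GRWT libraries. Both GRDim conditions were thus above GRWT without overlap. Its interaction was -1.02 ± 0.19 (adjusted p = 0.0442, edgeR), from 0.04 ± 0.15 in GRWT and -0.98 ± 0.12 in GRDim.

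Tac1, the precursor of the neuropeptide substance P, was at 25.3, 29.5 and 27.5 CPM in GRDim on water and at 13.6, 13 and 14.5 CPM on zinc, within the range of 10.9 to 15.6 CPM in GRWT (-0.79 ± 0.15, adjusted p = 0.0455, edgeR). Negative values also belonged to the actin-binding Tmsb10 (-0.53 ± 0.10), the nuclear pore subunit Nup93 (-0.52 ± 0.10) and the membrane protein Tmem50b (-0.50 ± 0.10), with adjusted p-values from 0.0375 to 0.0481.

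The summed level of T cell markers, like each of these 6 genes, was highest in GRDim on water. The summed level of the 9 T cell markers was 418.5 to 497 CPM in GRDim on water and 233.2 to 236.4 CPM in GRDim on zinc, against 62.7 to 109 CPM in GRWT, and all 9 had a negative interaction (median -0.80), as had 8241 of all 15947 genes, although none was called (0.263% of all genes were). The 7 myeloid markers summed to 339 to 385 CPM in GRDim on water and 249 to 313 CPM on zinc, against 207 to 375 CPM in GRWT. In bulk tissue, fewer cells of a type and less RNA per cell cannot be told apart, and the part of these cells in the results was not tested.

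Among the gene lists, calls were found in 4. Of the 19 circadian clock genes tested, 2 were called (Per2 and Cry2), 15 were positive, and the median was 0.31. Over all genes, 0.263% were called, 48.3% were positive (7706, against 8241 negative) and the median was -0.01. Cry2, which represses transcription with the Per proteins (ENSMUSG00000068742, chromosome 2, 92403646 to 92434043), was at 19.2, 19.1 and 17.3 CPM in GRWT on water, 15.9, 17.3 and 14.2 CPM in GRWT on zinc, 9.01, 8.67 and 10.04 CPM in GRDim on water and 12.6, 13.2 and 13.1 CPM in GRDim on zinc. GRDim on zinc thus lay between GRDim on water and GRWT, without overlap (0.72 ± 0.14, adjusted p = 0.045, edgeR). Cry2 overlaps D930015M05Rik on the other strand.

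The activators of the clock differed in their values. Npas2 had an interaction of 0.58 ± 0.14 (adjusted p = 0.0902, edgeR), Clock one of 0.16 ± 0.08 (adjusted p = 0.356) and Arntl one of 0.06 ± 0.13 (adjusted p = 0.872). The output genes Dbp (1.06 ± 0.69) and Tef (1.02 ± 0.50) had values below that of Per2 with a wider spread (adjusted p = 0.488 and 0.37). The repressor Bhlhe40 was at 0.40 ± 0.10 (adjusted p = 0.0801), and Per1, a classical receptor target, at -0.01 ± 0.22 (adjusted p = 0.993). The time of day of sampling is not given in the sources used here.

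Further repressors and receptors of the clock with a positive value were Per3 (0.31 ± 0.26), Cry1 (0.31 ± 0.23), Nr1d1 (0.17 ± 0.62) and Nr1d2 (0.45 ± 0.46), with adjusted p-values from 0.553 to 0.925. Usp2 was at 0.41 ± 0.33 and Hlf at 0.05 ± 0.31. Negative values belonged to Nfil3 (-0.26 ± 0.30), Rora (-0.19 ± 0.28) and Bhlhe41 (-0.51 ± 0.67), besides Per1, and none of these passed (adjusted p from 0.716 to 0.993).

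Of the 10 heat shock genes, 2 were called (Hspa1b and Dnajb1), 8 were positive and the median was 0.23 (0.263% and 48.3% of all genes were called and positive). The constitutive chaperone Hspa8 fell with zinc in GRWT (-0.60, adjusted p = 0.0182), where its level went from 713, 729 and 898 CPM to 493, 520 and 526 CPM without overlap, and its interaction was 0.39 ± 0.14 (adjusted p = 0.221, edgeR). Of the 12 genes of the unfolded protein response, 10 were positive (median 0.23; 48.3% of all genes were positive) and Herpud1, an endoplasmic reticulum stress protein, was called: GRDim on zinc was at 103, 107 and 109 CPM, against 79.0 to 89.0 CPM in GRDim on water and 82.0 to 110 CPM in GRWT (0.53 ± 0.10, adjusted p = 0.045). Of the 7 tested steroid receptors and enzymes, Hsd3b3 was called, 6 were positive and the median was 0.17, beside 48.3% positive over all genes. Nr3c1 itself had 0.28 ± 0.10 (adjusted p = 0.22).

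**Figure D3:**
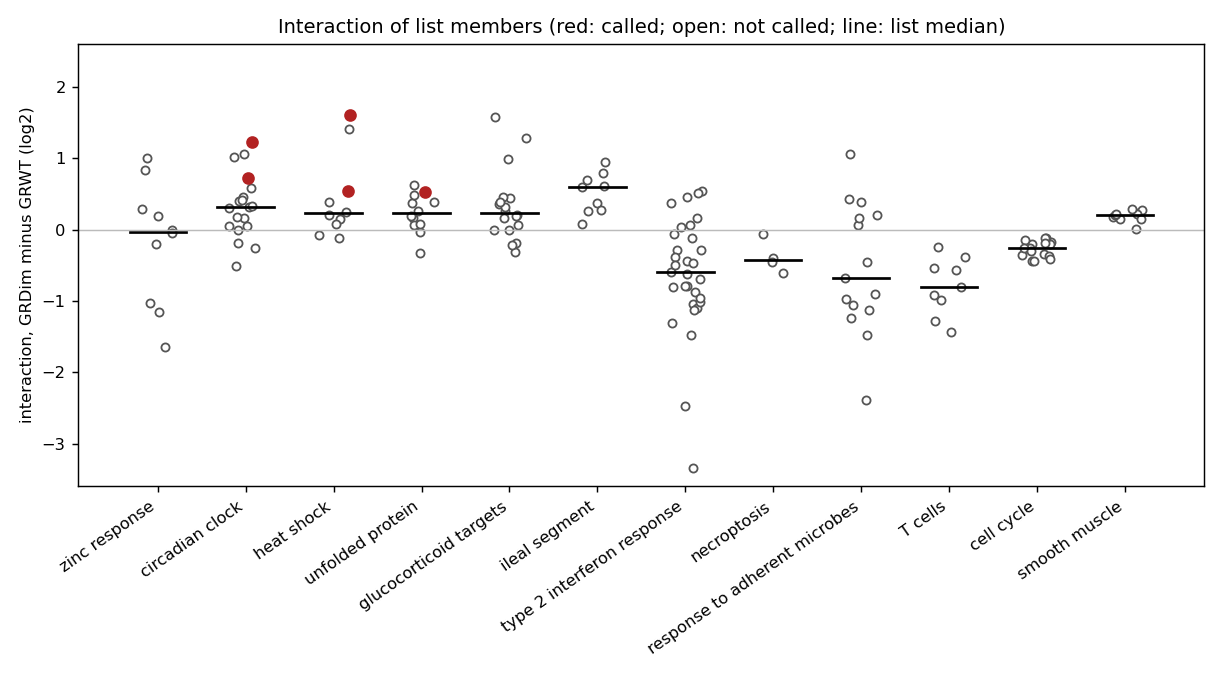
Interaction (log2, GRDim minus GRWT) of the tested members of 12 gene lists in the 12 muscle-rich libraries. Filled red points are the called members (Per2 and Cry2, Hspa1b and Dnajb1, and Herpud1), open points were not called, and the line is the median of the list, from -0.80 for T cells to 0.60 for the ileal segment.

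None of the 10 zinc response genes tested was called, and 4 were positive and 6 negative. Over all genes, 0.263% were called and 48.3% were positive. Mt1 rose in GRWT from 75.6, 41.5 and 29.3 CPM to 2481, 2489 and 1814 CPM and in GRDim from 77.6, 84.6 and 57.7 CPM to 1442, 1753 and 1356 CPM. The zinc libraries of GRDim were all below those of GRWT, and the interaction was -1.16 ± 0.45 (adjusted p = 0.271, edgeR; unadjusted p = 0.0301). Mt2 was at -1.65 ± 0.70 (adjusted p = 0.314) and the importer Slc39a4, which zinc represses, at 1.00 ± 0.24 (adjusted p = 0.109), so that for these genes the zinc effect was smaller in size in GRDim without passing the test. Mt4 had 0 or 1 count in the GRWT water libraries and 0 to 3 in the GRDim water libraries, reached 72 to 346 counts with zinc in GRWT and 283 to 403 in GRDim, and is given no fold here.

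The exporter Slc30a2 rose in both genotypes, by 1.83 in GRWT and 1.77 in GRDim on the log2 scale, and its interaction was -0.05 ± 0.22 (adjusted p = 0.934, edgeR). Mtf1 was at 0.18 ± 0.09 (adjusted p = 0.363) and Agtpbp1, which trims polyglutamate from tubulin, at -0.20 ± 0.35 (adjusted p = 0.83). Dennd5b, a regulator of Rab proteins, came close to the threshold (0.41 ± 0.09, adjusted p = 0.0693).

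None of 18 glucocorticoid targets was called, 13 were positive and the median was 0.23, beside 0.263% called and 48.3% positive over all genes. Sgk1, a kinase that regulates epithelial sodium channels and a target of the receptor dimer, had the largest value of the list: it was at 329, 282 and 322 CPM in GRWT on water, 303, 398 and 258 CPM in GRWT on zinc, 72.2, 68.2 and 98.5 CPM in GRDim on water and 297, 247 and 189 CPM in GRDim on zinc. The GRDim water libraries were below all others, and GRDim on zinc overlapped GRWT. The interaction of 1.58 ± 0.31 had an adjusted p of 0.0786. Tsc22d3 was at 0.44 ± 0.14 (adjusted p = 0.155).

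Genes of the type 2 interferon response had mostly negative values, without a call. Of 31 tested, 24 were negative (8241 of all 15947 genes were), 17 had an unadjusted p-value under 0.05, all of them negative, and the median was -0.59, while 1241 of all 15947 genes were negative at this level. The guanylate-binding protein Gbp2 was nearest to the threshold, with 130, 120 and 110 CPM in GRDim on water, 49.1, 59.2 and 62.6 CPM in GRDim on zinc and 30.3 to 48.4 CPM in GRWT (-0.80 ± 0.17, adjusted p = 0.0719, edgeR). The T cell attractant Cxcl9 was at -1.13 ± 0.33 (adjusted p = 0.162). Among the 7 positive members were the class 2 antigen presentation genes H2-Aa (0.54 ± 0.30), H2-Ab1 (0.51 ± 0.28) and Cd74 (0.38 ± 0.27) (adjusted p from 0.42 to 0.534).

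In the necroptosis list, Zbp1 was at -0.60 ± 0.26, Ripk3 at -0.46 ± 0.15 and Mlkl at -0.40 ± 0.13 (adjusted p = 0.31, 0.169 and 0.173, edgeR), and 0 of 4 were called although 3 had an unadjusted p-value under 0.05, as had 15.5% of all genes. Zbp1, a nucleic acid sensor that starts necroptosis, was at 117, 122 and 114 CPM in GRDim on water and 68.2, 78.9 and 80.3 CPM on zinc, against 8.25 to 16.1 CPM in GRWT. Of 15 genes of the response to adherent microbes, 0 were called and 9 were negative (median -0.68), beside 8241 of 15947 negative over all genes. All 16 cell cycle genes were negative, as were 8241 of all 15947 genes, with 0 called (median -0.26). Their summed level was 1380 to 1461 CPM in GRDim on water and 1117 to 1225 CPM on zinc, and 797 to 946 CPM in GRWT.

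The 9 tested ileal segment genes were all positive with 0 called (median 0.60; over all genes, 48.3% were positive and 0.263% called), and Cubn, the receptor for vitamin B12 with intrinsic factor, was nearest (0.95 ± 0.18, adjusted p = 0.0537, edgeR). Their summed level was 8020 to 9626 CPM in GRDim on water and 9116 to 15054 CPM on zinc, with the lowest of the latter inside the range of the water libraries, and 14751 to 17967 CPM in GRWT. Its part in the positive epithelial genes was not tested. The 8 tested genes of the proximal small intestine were also all positive, with 0 called (median 0.33). The smooth muscle list, of which Myh11 chose the libraries, summed to 2085 to 2329 CPM and 1808 to 2293 CPM in GRDim on water and zinc, and 2699 to 2944 CPM and 1984 to 2572 CPM in GRWT.

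The 42 genes were also measured in the 10 muscle-poor libraries, which played no part in choosing them (2 libraries per GRWT condition and 3 per GRDim condition). The GRDim water libraries among them were labelled ileum and the GRDim zinc libraries IEC, the reverse of the muscle-rich libraries. All GRWT libraries among them were labelled ileum. Within GRDim, zinc and the tissue label thus cannot be told apart here either. In the table of counts, 2 of the GRDim water libraries in the muscle-poor set share a column name, so that their condition is known and their replicate number is not. No gene passed there (0.0% of 13908 tested, edgeR; 648 with an unadjusted p-value under 0.05, and 0 or 1 in the fits of all 22 libraries). Of the 42, 22 had the same sign as in the muscle-rich libraries, against 50.1% of all genes tested in both. GRWT zinc replicate 3, 1 of the 2 libraries of its condition, stood apart: it held 813 CPM of Slc5a4b and 349 CPM of Rdh7, against 5.31 to 26.4 CPM and 15.0 to 47.9 CPM in the 9 others. Without it, an alternative added after the data were seen, 35 of the 42 had the same sign, against 58.1% of all genes, and 0 of 14339 genes passed (584 with an unadjusted p-value under 0.05); GRWT on zinc is then a single library whose spread is assumed to be that of the other conditions.

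Values of single genes varied in these libraries. Cry2 had an interaction of 0.51 (unadjusted p = 0.0742) with all 10 libraries and 0.75 (unadjusted p = 0.00398) without GRWT zinc replicate 3. It was at 10.3 to 11.6 CPM in GRDim on water and at 14.6 to 18.7 CPM on zinc, without overlap, and at 19.3 to 26.7 CPM in GRWT. Per2 was at 0.70 and 0.78 (unadjusted p = 0.0505 and 0.0485), Il5ra at 2.26 and 1.63 (unadjusted p = 0.0414 and 0.102) and 4732465J04Rik at 1.37 and 1.23 (unadjusted p = 0.0118 and 0.0352). With all 10 libraries, 20 of the 42 turned to the opposite sign. Among them were Slc5a4b (-4.31) and Rdh7 (-2.28), which moved to -0.32 and -0.23 without that library, and Slc47a1 (-1.60), BC035947 (-1.20), Apoa1 (-1.09) and Fam83b (-0.010), which moved to 0.54, -0.0122, 0.48 and 0.42. The difference of the interaction between libraries rich and poor in muscle passed for 0 of 16389 genes (1500 with an unadjusted p-value under 0.05).

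**Figure D4:**
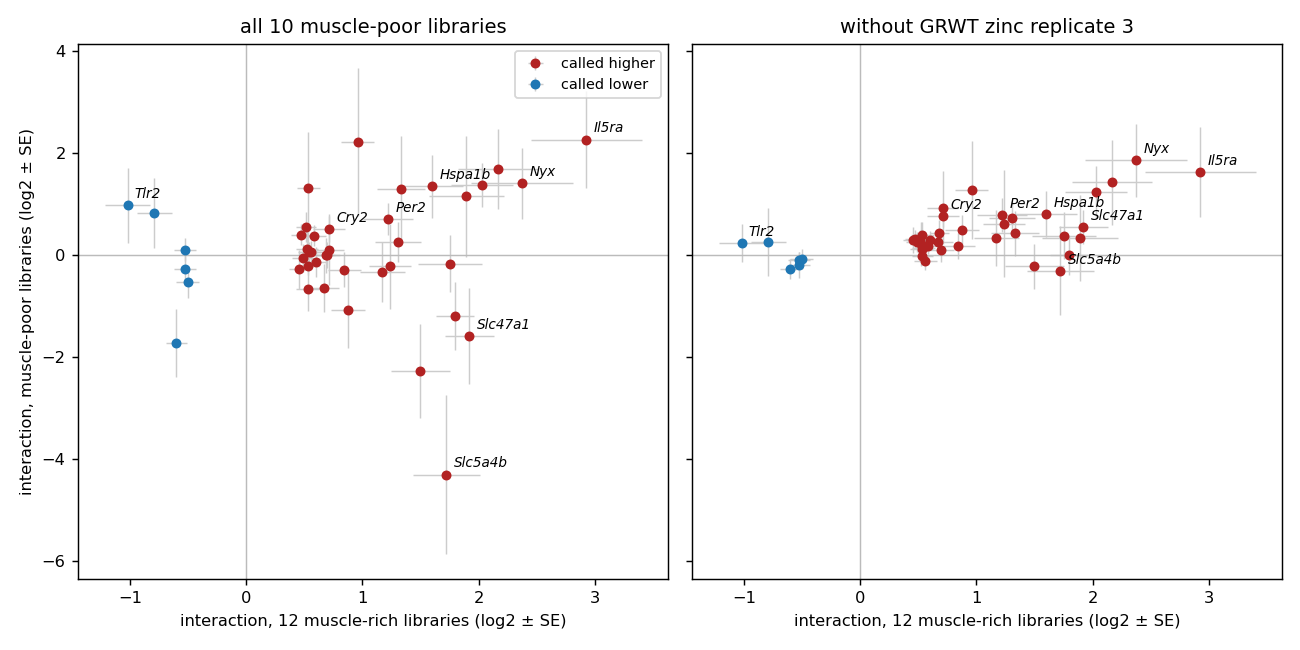
Interaction (log2 ± SE) of the 42 genes in the 12 muscle-rich libraries (horizontal) against that in the muscle-poor libraries (vertical), with all 10 of the latter (left) and without GRWT zinc replicate 3 (right). Points at the upper right and lower left have the same sign in both, which holds for 22 genes on the left and 35 on the right.

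The number of calls depended on single libraries, as seen with each of the 12 left out in turn. Without GRDim zinc replicate 3, 258 genes were positive and 88 negative, and these included all 42. The counts were 58 and 16 without GRWT zinc replicate 4 and 41 and 23 without GRWT zinc replicate 5. They fell to 5 and 1 without GRWT zinc replicate 1, to 5 and 0 without GRDim water replicate 4, GRDim water replicate 5 or GRDim zinc replicate 2, and to 7 and 0 without GRDim zinc replicate 1. In these 5 fits 5 to 7 of the 42 genes were called.

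The other fits gave 17 and 4 without GRWT water replicate 5, 24 and 2 without GRWT water replicate 4, 26 and 5 without GRWT water replicate 1, and 22 and 8 without GRDim water replicate 6. Slc47a1, Fam83b, BC035947 and 4732465J04Rik were called in all 12 of these fits, although the first 3 had the opposite sign in the muscle-poor libraries. Slc6a20b was called in 8 of 12, Il5ra in 4, Per2 and Tlr2 in 3, and Cry2 in 2. With the tissue label as a covariate, 16 genes were positive and 10 negative, and 10 of the 42 were among them. That fit takes the effect of the label from the GRWT libraries alone, because in GRDim the label goes with zinc. It therefore cannot separate the label from zinc in GRDim.

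**Figure D5:**
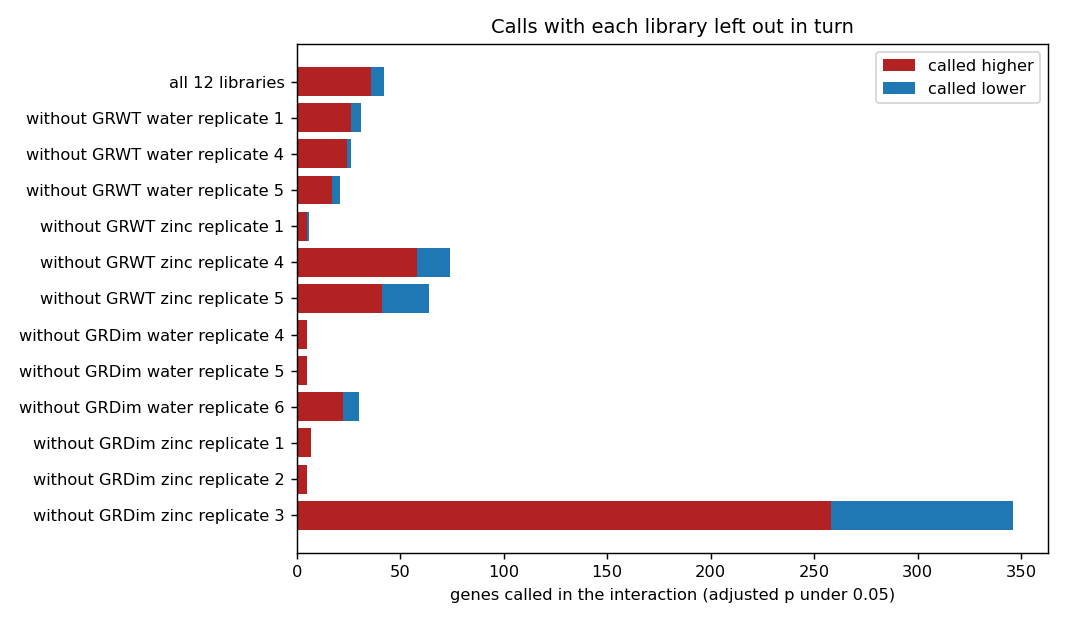
Number of genes called in the interaction (adjusted p under 0.05, edgeR) with all 12 muscle-rich libraries and with each left out in turn; red bars are positive and blue bars negative genes. The longest bar, without GRDim zinc replicate 3, stands for 258 positive and 88 negative genes, and the full set for 36 and 6.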

How the data were processed

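RNA was sequenced as stranded single-end libraries from the distal ileum. The authors trimmed the reads with Trimmomatic, mapped them to mm10 with HISAT2 2.0.4 and deposited raw counts per gene from featureCounts, without reads that map to several places; the strand setting and the annotation release are not given in the sources used here. Reads that near copies of a gene share are therefore missing from the counts.

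Gene names, positions and overlaps came from GENCODE M21 (GRCm38), which named 54809 of the 54838 genes in the table, and promoters from RefSeq. The 12 libraries with Myh11 over 100 CPM were fitted as 4 conditions in edgeR 4.0.16 (R 4.3.3) with TMM scaling, the default count filter and the robust quasi-likelihood F test. Adjusted p-values are Benjamini-Hochberg values over all genes tested, and a gene was called at an adjusted p under 0.05 with no fold threshold. An error given with ± is a standard error. CPM are normalised with the TMM library sizes. The fit was tested on simulated counts before use.

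Named are the called genes with a proper symbol and a mean of at least 1 CPM, up to 25 per direction by size, the called members of gene lists, and a set of zinc, clock, necroptosis and receptor genes whatever their result. The members and lists were chosen with earlier results of these data known. Alternatives were DESeq2 1.42.0, limma voom 3.58.1, other filters, covariates, sets of libraries and scaling, and leaving out each library in turn. Some genes that the rule names are not reported here.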

Additional observations from a re-analysis of the deposited data

Results flagged for a closer look

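The zinc effects in GRDim and GRWT differed, by the interaction term of the fit, for 42 genes in the muscle-rich libraries, which are the genes described above. The difference between the genotypes was tested directly for each of them. Within GRDim, zinc and the tissue label cannot be told apart.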

How the results depend on the processing

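Against 36 positive and 6 negative genes, DESeq2 called 232 and 79, limma voom 13 and 2, the fit without a count filter 159 and 110, the tissue label as a covariate 16 and 10, the smooth muscle level as a covariate 16 and 6, and a threshold of 0.8 on the log2 scale 19 and 1. DESeq2 size factors, a stricter filter and a fit without robust estimation stayed within 1.5 times both counts and called 41, 42 and 30 of the 42. Leaving out each library gave 5 to 258 positive and 0 to 88 negative genes. Without both GRWT libraries labelled ileum, chosen after seeing the data, the counts were 39 and 10. Fits of all 22 libraries gave 1 and 0 with 8 cells, and 0 and 0 with the muscle split or the tissue label as a covariate; the 10 muscle-poor libraries alone gave 0 and 0. Of the 42, DESeq2 called 22, limma voom 12, the fit without a count filter 41, the tissue label covariate 10, the smooth muscle covariate 15 and the fit without both ileum-labelled GRWT libraries 26. The cause of these differences was not tested. In the fit of the 12 libraries with the tissue label, the effect of the label came from the GRWT libraries alone.

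Whether the replicate numbers pair the samples is not known. Same-numbered GRWT libraries had correlations of deviations of 0.07, -0.11 and -0.11, and different-numbered ones ran from -0.27 to 0.29. The GRDim conditions share no number. The replicate block gave 46 and 18, with 37 of the 42 among them.

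Signs turned in the muscle-poor libraries alone for Slc47a1 (-1.60), BC035947 (-1.20), Slc6a20b (-0.17), Slc5a4b (-4.31), Rdh7 (-2.28), Nt5e (-0.22), Bmp8b (-0.34), Apoa1 (-1.09), Nlrp9b (-0.29), Hist1h2bc (-0.00046), Fam83b (-0.010), Osbpl6 (-0.65), Plekha1 (-0.14), Dnajb1 (-0.21), Herpud1 (-0.67), Etnk1 (-0.066), Serinc5 (-0.29), Nup93 (0.10), Tac1 (0.81) and Tlr2 (0.97). With all 22 libraries and the tissue label as a covariate they turned for Slc5a4b (-1.94), Rdh7 (-0.29), Apoa1 (-0.069) and Herpud1 (-0.061), and with the muscle split for Slc5a4b (-1.18). The number of called genes with the same sign in the muscle-poor libraries went from 22 to 35 without GRWT zinc replicate 3. With 3 libraries per condition, levels near 1 CPM, as for Il5ra and Nyx in GRDim on water, rest on few counts.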
